A study of Mus musculus with 7 samples.

Results

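The genes that encode the subunits of the GABA-A, glycine and glutamate receptors were followed in RNA from the midbrain of adult mice. They were chosen by gene symbol: every symbol starting with Gabr, the glycine receptor genes Glra1 to Glra4 and Glrb, the ionotropic glutamate receptor genes of the Gria, Grik, Grid and Grin families, and the Grm family of metabotropic glutamate receptors. The rule found 50 genes among 32531. All libraries came from untreated control mice of the line Stard8-TRAP ES2342, which carries Rpl10a, a protein of the large ribosomal subunit, fused to EGFP under regulatory sequence of Stard8. In translating ribosome affinity purification, beads coated with anti-EGFP antibodies pull the tagged ribosomes and their RNA out of a homogenate. The immunopurified group (IP) had 3 libraries, replicates 1, 2 and 4, and the unbound group, the RNA that stayed in the homogenate, had 4, with replicate 3 represented there alone. IP replicate 3 is not analysed here. The sex of the mice, and whether libraries came from separate or pooled animals, are not given in these sources. The p-values therefore measure only the spread between these libraries, which may be technical.

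GABA-A and glycine receptors are pentameric chloride channels that carry fast inhibition, and the midbrain and brainstem use both. AMPA, kainate and NMDA receptors are tetrameric cation channels gated by glutamate, and the delta receptors of the same family bind cerebellins at synapses. Metabotropic glutamate receptors signal through G proteins, group I mainly through Gq and groups II and III through Gi. Most of these genes are known as neuronal, and some, among them Grm3, are also expressed by astrocytes.

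Libraries held 52052340 to 70861941 counts in genes in IP and 53715780 to 76114634 in unbound. Levels are given as CPM, that is, counts after scaling by the effective library size (the counts in genes tested times the TMM factor), and 3 counts correspond to 0.0376 to 0.059 CPM. Stard8 had 388, 440 and 227 CPM in IP 1, 2 and 4, against 3.51, 4.35, 4.18 and 4.89 CPM in unbound 1 to 4, a log2 fold change of 6.38 ± 0.31. By its title the series profiles midbrain neurons. All 12 pan-neuronal markers were measured in both groups and were lower in IP, with a median log2 fold change of -1.75 and a range of -3.26 to -1.07. Their summed level was 3568, 3934 and 8039 CPM in IP, against 14500, 16008, 19267 and 21849 CPM in unbound. Markers of endothelium (8 of 8), pericytes and smooth muscle (8 of 8), microglia and macrophages (8 of 8) and astrocytes (7 of 10) were higher in IP, and those of oligodendrocytes (8 of 8) were lower. IP and unbound are fractions of a homogenate, so these differences are in the share of RNA found in each fraction. Their cause was not tested. In bulk libraries like these, the number of cells of a type that gave RNA and the RNA per cell cannot be told apart.

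Most receptor subunit genes were lower in IP, and none was called higher. Of the 50 genes, 47 had enough counts to be tested, 34 of these (72.3%) were lower in IP past an adjusted p of 0.05 in edgeR's quasi-likelihood test, 0 were higher and 13 did not pass. Over all 17654 genes tested, 18.9% were lower and 20.5% were higher. The median log2 fold change of the 47 genes, IP over unbound, was -1.43 with a range of -2.59 to 0.31, and 45 lay below zero. The median over all genes was -0.10, or 0.0069 when libraries were scaled by their size alone, and 45 of 47 receptor genes were below zero with either scaling. At an unadjusted p under 0.05 edgeR found 0 receptor genes higher in IP and 37 lower, and DESeq2 and limma voom also called 0 higher after adjustment. Every IP library was below every unbound library for 30 of the 47 genes, and for 22.7% of all genes. No receptor gene had every IP library above every unbound library.

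The number of calls depended on single libraries. It was 20 without IP 1 and 19 without IP 2, when the calls over all genes were 1899 and 1751 lower, and lay between 27 and 37 without any other library. Of the 34 genes, 19 were called lower without each of the 7 libraries in turn. Libraries carried 1 of 2 index sequences, ACAGTG (IP 1 and 2, unbound 1 and 2) or GTGAAA (IP 4, unbound 3 and 4). Within ACAGTG 27 genes were lower and 0 were higher. Over all genes, 1650 of 17663 were lower within ACAGTG. The lone IP library of the GTGAAA fit was assumed to vary like the unbound ones, so its calls are not counted here. The median log2 fold change of the receptor genes was -1.71 within ACAGTG and -0.90 within GTGAAA. Over all genes it was -0.13 and -0.05. Calls lost within ACAGTG were those of Gabra2, Gabrb1, Gabrg1, Gabrq, Gria1, Grik3, Grin2d and Grm2, and Gabrd, Gabrg1, Gria1, Gria2, Grik3, Grin1, Grin2a and Grm2 were among those lost within GTGAAA. Gabrr2 within ACAGTG and Glra3 within GTGAAA were called in addition. Lane numbers did not overlap between groups, 2 and 5 for IP and 1 and 3 for unbound, so lane and group cannot be told apart. Some receptor genes share exon bases with a gene on the other strand, 5.84% in Glra1 and 9.66% in Grin2d among them, and the strand setting of the counting is not given in the sources used here.

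**Figure D1:**
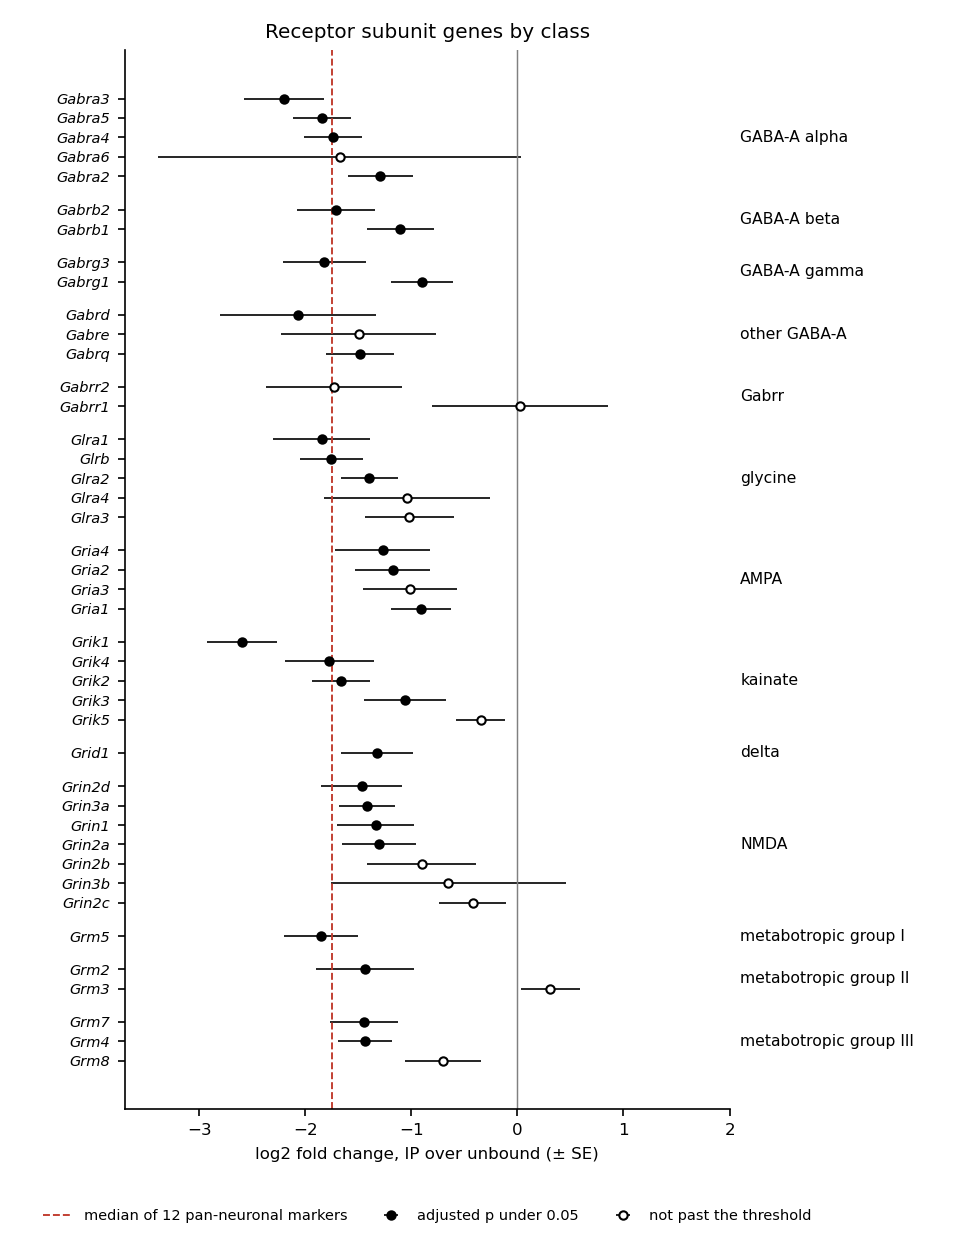
Log2 fold change, IP over unbound, with its standard error, for most of the 47 receptor subunit genes tested, grouped by class down the page. Filled points passed an adjusted p of 0.05, the dashed line is the median of the 12 pan-neuronal markers at -1.75, and Grm3 and Gabrr1 are the genes right of zero.

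The summed level of all 50 genes was 718, 866 and 1677 CPM in IP 1, 2 and 4, against 3097, 2209, 2788 and 3285 CPM in unbound 1 to 4. IP 4 was the highest of the IP libraries and stayed below unbound 2, the lowest of the others. The genes took 0.0760% to 0.164% of counts in IP, against 0.189% to 0.329% in unbound. Divided by the summed level of the pan-neuronal markers, the receptor sum came to 0.201, 0.220 and 0.209 in IP, against 0.214, 0.138, 0.145 and 0.150 in unbound. The IP libraries were alike on this ratio, and unbound 1 lay among them while the other unbound libraries lay below. Snap25 made up most of the marker sum, with 2483, 2620 and 5463 CPM in IP, against 9555, 10709, 12728 and 15517 CPM in unbound. The ratio thus mainly sets the receptor genes against that marker. Of the 47 log2 fold changes, 34 lay inside the range of the 12 pan-neuronal markers, 38 above their median and 13 above their highest value.

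Among the GABA-A genes, 13 of 17 tested were lower in IP, with a median log2 fold change of -1.68. Of the alpha subunits, which line the GABA and benzodiazepine sites, 5 of 6 were lower, between -2.20 for Gabra3 and -1.29 for Gabra2. Gabra5, an alpha subunit of extrasynaptic receptors, had the smallest p of the class, with 12.2, 15.2 and 22.2 CPM in IP, against 74.9, 52.6, 53.7 and 55.9 CPM in unbound. The groups did not overlap, and unbound 1 stood above the other unbound libraries. The log2 fold change was -1.84 ± 0.28 (adjusted p = 0.000477).

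Beta subunits carry part of the GABA site, and a gamma subunit holds the receptor at the synapse. Gabrb2, a beta subunit gene, had 47.4, 77.2 and 124 CPM in IP, against 321, 174, 234 and 353 CPM in unbound (log2 fold change -1.71 ± 0.37, adjusted p = 0.00443). IP 4 was the highest IP library and the groups did not overlap. Gabrg1, a gamma subunit gene, had a smaller difference, -0.90 ± 0.29 (adjusted p = 0.0314), and did not pass without IP 1, IP 2, IP 4 or unbound 1 (-0.67 to -0.94, adjusted p 0.0608 to 0.109), nor with library size as the only scaling (-0.81, adjusted p = 0.0575). Gabrb1 did not pass without IP 1 or IP 2 (-1.03 and -1.04, adjusted p = 0.0723 and 0.0755).

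The delta, epsilon, theta and pi subunits form less common receptors, delta ones mostly outside synapses. Gabrq (theta), which is known from monoaminergic and hypothalamic neurons, had 5.66, 6.33 and 4.42 CPM in IP, against 11.2, 12.1, 19.0 and 18.9 CPM in unbound. All IP values were below all unbound values and, unlike in most receptor genes, IP 4 was the lowest. Its log2 fold change was -1.48 ± 0.32 (adjusted p = 0.00430). Gabrd (delta), the most abundant of the 4 per kilobase, had 2.001, 0.383 and 6.92 CPM in IP, against 12.2, 19.1, 11.4 and 9.20 CPM in unbound. The groups did not overlap, IP 2 was the lowest library, and IP 4 came closest to unbound 4. The log2 fold change was -2.07 ± 0.73 (adjusted p = 0.0449), and the gene passed only with all 7 libraries or without IP 4 (-3.42, adjusted p = 0.00423), and not without any other library (-1.53 to -2.20, adjusted p 0.0590 to 0.142). Without the filter on low counts it did not pass either (-2.06, adjusted p = 0.0553). Gabre did not pass (-1.50 ± 0.73, adjusted p = 0.127), and Gabrp (pi) had 0 counts in every library.

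The Gabrr genes, whose subunits form receptors best known from the retina, were scarce. Gabrr2 had 0.574, 1.46 and 3.09 CPM in IP, against 9.70, 5.07, 2.41 and 5.44 CPM in unbound. IP 4 lay above unbound 3, so the groups overlapped. The log2 fold change of -1.73 ± 0.64 did not pass in edgeR (adjusted p = 0.0521). It passed in DESeq2 (adjusted p = 0.0130) and limma voom (adjusted p = 0.0303), without IP 4 (-2.47, adjusted p = 0.0214) and without unbound 3 (-1.99, adjusted p = 0.0362). Gabrr1 had 0.627, 0.889 and 0.826 CPM in IP, against 0.125, 1.29, 0.683 and 0.971 CPM in unbound, a log2 fold change of 0.03 ± 0.83 (adjusted p = 0.985). The unbound values spanned the IP values, and the sign turned without IP 2, IP 4, unbound 1 or unbound 3 (-0.07, -0.01, -0.33 and -0.03). Gabrr3 had 1 count, in IP 2, and was not tested.

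GABA-A genes lie in clusters on the chromosomes (coordinates in GRCm38), and position was not part of the rule. The cluster on chromosome X (72255999 to 72842602) held Gabre, Gabra3 and Gabrq at -2.20 to -1.48, of which 2 were lower. The 4 genes on chromosome 5 (70751047 to 72149037), Gabrg1, Gabra2, Gabra4 and Gabrb1, were all lower and spread more widely, at -1.74 to -0.90. Gabrr2 and Gabrr1, neighbours on chromosome 4, differed as given above.

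Gabra6 was singled out after its values were seen, because the ratio of its highest to its lowest CPM within a group was larger than that of any other receptor gene described here, in IP and in unbound. It encodes an alpha subunit known mainly from cerebellar granule cells. It had 0.0667, 0.0523 and 5.90 CPM in IP, against 0.0376, 0.790, 4.35 and 20.3 CPM in unbound. Unbound 4 was the highest and IP 4 the next, while IP 1, IP 2 and unbound 1 were near the level of 3 counts. The log2 fold change was -1.68 ± 1.71 (adjusted p = 0.466). It was 0.21 without unbound 4 (adjusted p = 0.935) and -6.68 without IP 4 (adjusted p = 0.0405). The RefSeq promoter window of the gene, 250 bases before to 50 after its start (GRCm38.p6, chr11:42321023-42321322, minus strand, written 5′ to 3′ along the gene), is shown because it is unlike those of the other receptor genes printed here in its base composition: it holds 2 CpG pairs and 42.0% G and C, against medians of 11 and 58.7% over the 41 windows of 34 receptor genes found in that table, and of 7 and 52.7% over all 32851 windows.
Gabra6: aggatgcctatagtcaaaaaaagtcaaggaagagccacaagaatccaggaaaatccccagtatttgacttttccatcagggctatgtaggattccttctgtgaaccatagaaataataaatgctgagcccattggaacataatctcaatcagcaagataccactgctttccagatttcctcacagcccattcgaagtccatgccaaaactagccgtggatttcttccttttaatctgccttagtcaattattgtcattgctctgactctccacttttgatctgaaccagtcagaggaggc

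Of the 6 markers of cerebellar cells, Cbln3, Fat2, Pcp2 and Neurod1 were highest in the same libraries as Gabra6, unbound 4 and, within IP, IP 4, and Zic1 and Cdh15 were not. Cbln3, a granule cell cerebellin, had 0.240, 0.314 and 15.0 CPM in IP, against 7.92, 2.37, 19.7 and 74.0 CPM in unbound. Fat2, a granule cell cadherin, had 0.480, 0 and 2.71 CPM in IP, against 0.138, 0.241, 5.96 and 14.3 CPM in unbound. The Purkinje cell gene Pcp2 had 0.0667, 0.0697 and 1.95 CPM in IP, against 0.0251, 0.996, 1.95 and 9.46 CPM in unbound. In IP 1 and IP 2 these 3 genes were below 0.5 CPM, and their part in the Gabra6 values was not tested. Zic1, a transcription factor of cerebellar granule cells and of some non-neuronal cells, did otherwise, with 250, 234 and 176 CPM in IP, against 81.9, 41.9, 80.3 and 117 CPM in unbound. Cdh15 was highest in unbound 1 and lowest in IP 4, with 0.707, 1.24 and 0.256 CPM in IP, against 11.0, 4.05, 2.05 and 1.82 CPM in unbound. The summed level of all 6 cerebellar markers ranged from 206 to 255 CPM in IP and from 52.5 to 249.7 CPM in unbound.

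**Figure D2:**
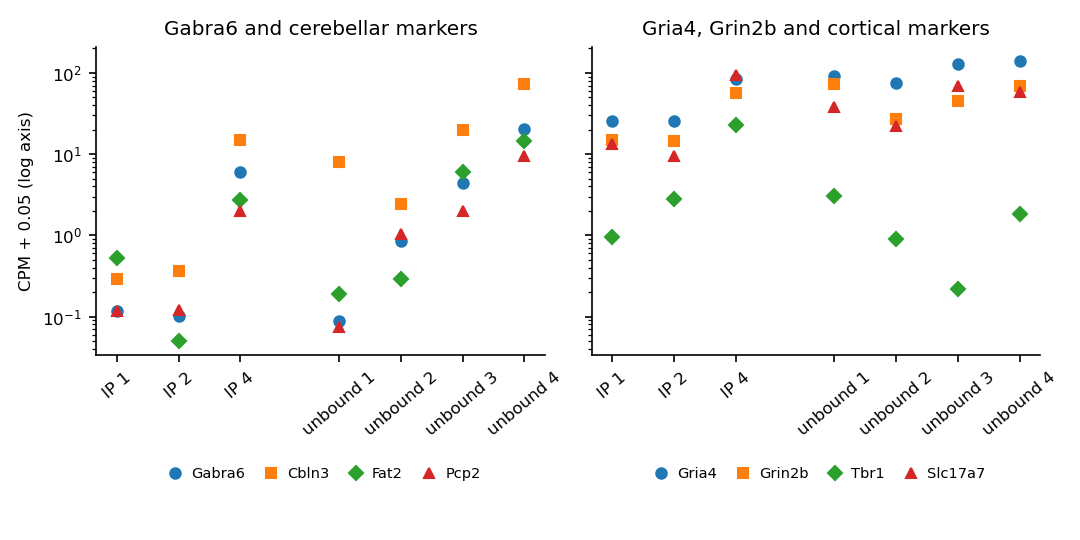
CPM plus 0.05 on a log axis in each library, for Gabra6 beside the cerebellar markers Cbln3, Fat2 and Pcp2 (left) and for Gria4 and Grin2b beside the cortical markers Tbr1 and Slc17a7 (right). Among IP libraries all 8 genes are highest in IP 4, and among unbound libraries the 4 genes on the left are highest in unbound 4. The cerebellar markers Zic1 and Cdh15, which did not share this order, are not drawn, nor is Neurod1, which did.

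Of the glycine receptor genes, 3 of 5 were lower in IP, Glra1, Glra2 and Glrb, with a median log2 fold change of -1.39 over the 5. Glrb, the beta subunit that binds the scaffold gephyrin, lies on chromosome 3 (80843599 to 80913660, minus strand). It was the most abundant glycine receptor gene per kilobase, with 31.3, 43.2 and 67.7 CPM in IP, against 139, 139, 180 and 182 CPM in unbound. Every IP value lay below every unbound value, and IP 1 was the lowest and IP 4 the highest IP library. Its log2 fold change was -1.75 ± 0.30 (adjusted p = 0.00102). Glra1, the main adult alpha subunit of the brainstem and spinal cord, was lower by the test (-1.84 ± 0.46, adjusted p = 0.00894), although IP 4 with 15.7 CPM lay above unbound 2 with 15.0 CPM. Glra3 and Glra4, other alpha subunits, did not pass (-1.02 ± 0.42 and -1.04 ± 0.79, adjusted p = 0.0769 and 0.318), and Glra3 passed without unbound 2 (-1.16, adjusted p = 0.0428).

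**Figure D3:**
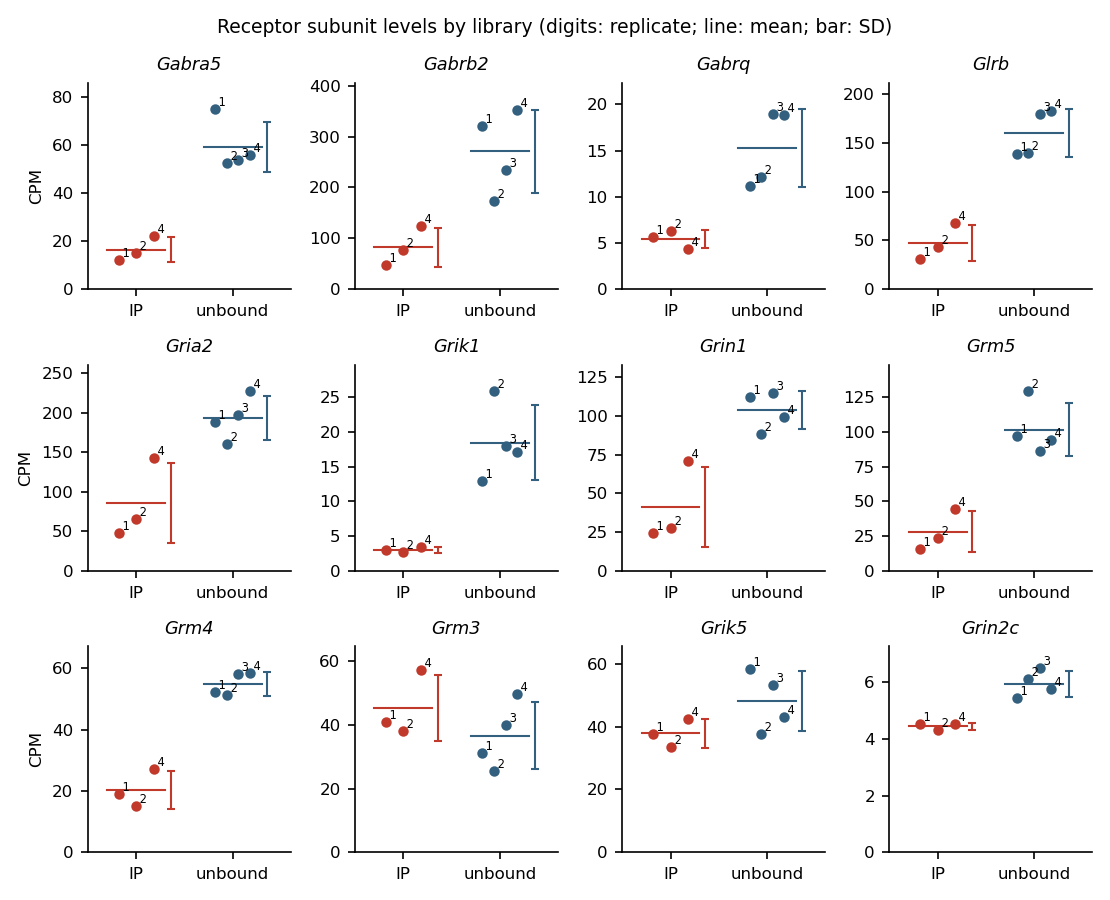
CPM in each library for 12 receptor subunit genes, IP on the left and unbound on the right of each panel, with the replicate number at each point, the group mean as a line and the SD as a bar. IP lies below unbound in 10 of the panels, and overlaps it in those of Grm3 and Grik5.

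AMPA receptor genes encode the channels of fast excitation, and 3 of 4 were lower in IP, with a median log2 fold change of -1.09. Gria1, the most abundant AMPA receptor gene per kilobase, had 61.2, 66.5 and 111 CPM in IP, against 183, 109, 140 and 166 CPM in unbound. IP 4 lay just above unbound 2, and the log2 fold change was -0.91 ± 0.29 (adjusted p = 0.0270). Gria2, whose subunit keeps calcium out of the channel, had 47.8, 66.0 and 143 CPM in IP, against 188, 161, 198 and 228 CPM in unbound. The groups did not overlap, but IP 4 was closer to unbound 2 than to the other IP libraries, and the log2 fold change was -1.18 ± 0.36 (adjusted p = 0.0231). Both calls were lost without IP 1 or IP 2 (adjusted p = 0.126 and 0.128 for Gria1, 0.0950 and 0.111 for Gria2) and without unbound 4 (0.0607 and 0.0543), and that of Gria1 also without unbound 1 (0.0601). The log2 fold changes without these libraries were -0.73 to -0.86 for Gria1 and -0.87 to -1.09 for Gria2.

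Gria2 is a known target of the repressor REST, which silences neuronal genes outside neurons, and its promoter window is printed to show the base context. Windows were searched on both strands for either part of the REST element, TTCAGCACC and GGACAGCGC, with no mismatch. The letters TTCAGCACC occur in 0.371% of the 32851 windows and GGACAGCGC in 0.405%, and among the 41 receptor windows each occurs in 1. In Gria2 (chr3:80802786-80803085, minus strand) the match is on the opposite strand, is capitalised as GCGCTGTCC and starts at position -173 from the start site. A match is a description of the sequence and not evidence of binding.
Gria2: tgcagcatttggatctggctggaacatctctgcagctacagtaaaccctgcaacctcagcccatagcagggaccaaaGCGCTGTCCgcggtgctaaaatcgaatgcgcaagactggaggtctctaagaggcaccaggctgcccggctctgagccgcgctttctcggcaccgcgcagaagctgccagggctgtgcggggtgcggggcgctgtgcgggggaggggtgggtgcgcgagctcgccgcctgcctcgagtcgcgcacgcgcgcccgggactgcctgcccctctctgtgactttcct

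Gria3 and Gria4 encode the other AMPA subunits, and their values are given because IP 4 stood above IP 1 and IP 2 and within the unbound range. Gria4 had 25.3, 25.2 and 85.1 CPM in IP, against 91.8, 74.5, 130 and 140 CPM in unbound, and IP 4 lay above unbound 2. Its log2 fold change was -1.27 ± 0.44 (adjusted p = 0.0423), or -2.10 without IP 4 (adjusted p = 0.00119), and it did not pass without IP 1, IP 2, unbound 1, unbound 3 or unbound 4 (-0.97 to -1.34, adjusted p 0.0558 to 0.164). Gria3 had 27.8, 46.3 and 107 CPM in IP, against 115, 67.5, 136 and 166 CPM in unbound, and did not pass (-1.01 ± 0.44, adjusted p = 0.0947). It passed without IP 4 (-1.70, adjusted p = 0.00942) and without unbound 2 (-1.21, adjusted p = 0.0410). In both genes IP 4 was the library that overlapped the unbound range.

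The kainate receptor genes, 4 of 5 of them lower in IP, had the widest range of log2 fold changes of the 13 classes, -2.59 to -0.35. Grik1, a subunit that can form a channel by itself, lies on chromosome 16 (87895900 to 88290265, minus strand) and had the lowest log2 fold change of all receptor genes, -2.59 ± 0.33 (adjusted p = 0.000164). It had 3.01, 2.65 and 3.50 CPM in IP, against 12.9, 25.8, 17.9 and 17.1 CPM in unbound. The IP libraries were close together, IP 4 included, and all were far below the unbound ones, whose mean was 6.03 times the IP mean. Without any 1 library its log2 fold change lay between -2.73 and -2.39. Grik2, Grik3 and Grik4 were also lower (-1.66 ± 0.27, -1.06 ± 0.39 and -1.77 ± 0.42). Grik3, at an adjusted p of 0.0499, did not pass without IP 1, IP 2, unbound 1, unbound 3 or unbound 4 (-0.80 to -1.03, adjusted p 0.0930 to 0.186), nor with RLE scaling or library size alone (-1.06 and -1.02, adjusted p = 0.0501 and 0.0591). Grik5, an auxiliary subunit that needs a partner to form a channel (chromosome 7, 25009849 to 25072346), had 37.8, 33.4 and 42.3 CPM in IP, against 58.4, 37.6, 53.2 and 43.1 CPM in unbound. The groups overlapped, and the log2 fold change of -0.35 ± 0.23 did not pass (adjusted p = 0.258). Per kilobase, the ratio of Grik5 to Grik2 was 9.59, 7.32 and 5.83 in IP, against 3.68, 2.53, 3.15 and 2.28 in unbound. That ratio was higher in every IP library than in any unbound one, was chosen after the values were seen and was not tested.

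Grid1, a delta receptor gene, was lower in IP. It had 5.51, 5.61 and 10.4 CPM in IP, against 12.2, 22.9, 18.2 and 18.4 CPM in unbound (log2 fold change -1.32 ± 0.34, adjusted p = 0.0110). The groups did not overlap, with IP 4 nearest to unbound 1. The call was lost when IP 1 or IP 2 was left out, at log2 fold changes of -1.15 and -1.16 and adjusted p-values of 0.0586 and 0.0620.

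Of the NMDA receptor genes, 4 of 7 were lower in IP, with a median log2 fold change of -1.31. Grin1, the subunit that every NMDA receptor needs, lies on chromosome 2 (25291181 to 25319187, minus strand) and shares 13.5% of its exon bases with the antisense gene Grin1os. It had 24.5, 28.0 and 70.8 CPM in IP, against 112, 88.0, 115 and 99.6 CPM in unbound. IP 4 stood between the other IP libraries and unbound 2, without overlap between groups. The log2 fold change was -1.34 ± 0.36 (adjusted p = 0.0137), and the gene did not pass without IP 1 or IP 2 (-1.05 and -1.11, adjusted p = 0.0618 and 0.0749). Grin3a, a subunit that lowers calcium entry, had the smallest p of the class, with 19.3, 28.0 and 36.3 CPM in IP, against 86.0, 62.6, 70.7 and 78.3 CPM in unbound. All IP values were well below all unbound values (-1.42 ± 0.26, adjusted p = 0.00190), and the call held without any 1 library.

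The glutamate-binding Grin2 subunits, which set the kinetics of the NMDA receptor, differed in their values. Grin2a (-1.31 ± 0.35, adjusted p = 0.0134) and Grin2d (-1.47 ± 0.38, adjusted p = 0.0113), a subunit of the midbrain and brainstem, were lower in IP. Grin2a did not pass without IP 1 or IP 2 (-1.02 and -1.21, adjusted p = 0.0604 and 0.0655), nor Grin2d without IP 2 (-1.43, adjusted p = 0.0516). Grin2b, a subunit of forebrain and early postnatal synapses, had 14.7, 14.3 and 57.0 CPM in IP, against 72.7, 27.0, 45.7 and 68.7 CPM in unbound. IP 4 lay within the unbound range and the others below it. The log2 fold change did not pass (-0.90 ± 0.52, adjusted p = 0.189), but passed without IP 4 (-1.88, adjusted p = 0.00717). Grin2c, known from cerebellum and astrocytes, had 4.52, 4.30 and 4.52 CPM in IP, against 5.45, 6.12, 6.51 and 5.75 CPM in unbound. Its groups did not overlap, but the log2 fold change of -0.42 ± 0.31 did not pass (adjusted p = 0.311). Grin3b did not pass (-0.65 ± 1.11, adjusted p = 0.674), had at most 1.27 CPM in any library and shares 32.1% of its exon bases with Tmem259.

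Among the metabotropic receptor genes, 5 of 7 tested were lower in IP, with a median log2 fold change of -1.44. Grm5, a group I gene (chromosome 7, 87584168 to 88134907, plus strand), had 16.0, 23.9 and 44.6 CPM in IP, against 96.9, 129, 86.3 and 94.3 CPM in unbound. No library of either group came near the other, and the log2 fold change was -1.85 ± 0.35 (adjusted p = 0.00195). In group III, receptors that dampen release from nerve terminals, Grm4 had 19.0, 15.0 and 27.0 CPM in IP, against 52.2, 51.2, 58.2 and 58.6 CPM in unbound. The unbound libraries were close together and all above IP 4 (-1.44 ± 0.25, adjusted p = 0.00133). Grm7 was also lower (-1.45 ± 0.32, adjusted p = 0.00495), Grm8 did not pass (-0.70 ± 0.36, adjusted p = 0.143), and Grm6, a gene of retinal bipolar cells, had 5 counts in IP 2, 5 in unbound 3 and 2 in unbound 4 and was not tested.

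Group II held genes with opposite signs. Grm3, known from neurons and astrocytes (chromosome 5, 9485541 to 9725170, minus strand), had 40.8, 37.9 and 57.2 CPM in IP, against 31.2, 25.4, 39.8 and 49.6 CPM in unbound. IP 4 was the highest library of all, but unbound 4 lay above IP 1 and IP 2. Its log2 fold change of 0.31 ± 0.28 was the highest of all receptor genes and did not pass (adjusted p = 0.397). It was 0.12 without IP 4 and -0.03 without both IP 4 and unbound 2. Grm2, a neuronal autoreceptor, had 4.91, 3.08 and 10.6 CPM in IP, against 24.7, 9.41, 17.9 and 14.9 CPM in unbound. IP 4 lay above unbound 2, and the log2 fold change was -1.43 ± 0.46 (adjusted p = 0.0305). That call did not hold without IP 1, IP 2, unbound 1 or unbound 3 (-1.10 to -1.40, adjusted p 0.0606 to 0.117), and 9.60% of the exon bases of Grm2 are shared with another gene, Gm28111, on the other strand. Per kilobase, the ratio of Grm3 to Grm2 was 13.3, 19.7 and 8.66 in IP, against 2.03, 4.33, 3.58 and 5.33 in unbound. Every IP library was above every unbound one in this ratio, which was chosen after the values were seen and was not tested.

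Astrocyte markers had positive log2 fold changes, as Grm3 had, though that of Grm3 did not pass. Their summed level over 10 genes was 2642, 2791 and 3234 CPM in IP, against 1736, 1087, 1622 and 1592 CPM in unbound, and the median log2 fold change was 1.05. IP 4 was the highest and unbound 2 the lowest of the 7 libraries in this sum, as in Grm3. The other libraries did not keep that order. In the sum IP 2 lay above IP 1 and unbound 1 was the highest unbound library. In Grm3 IP 1 lay above IP 2 and unbound 4 was the highest unbound library. The largest parts of the sum were Aldoc and Slc1a2, which did not pass (adjusted p = 0.0603 and 0.436). Single markers differed in this order. Among IP libraries Aldoc, Slc1a2, Slc1a3, Gja1 and Aldh1l1 were highest in IP 4. Aqp4 and Fgfr3 were highest in IP 2, and Gfap, S1pr1 and Ntsr2 were lowest in IP 4. Of the 10 markers 7 passed the test, and their part in the Grm3 values was not tested. The promoter windows of the group II genes are printed to show their base context, and a link to their fold changes was not tested. Grm2 (chr9:106656060-106656359, minus strand) holds the REST letters TTCAGCACC, in capitals, on the strand of the gene from position -242. Grm3 (chr5:9725303-9725602, minus strand) holds neither searched part. That only says that these letters are not in this window.
Grm2: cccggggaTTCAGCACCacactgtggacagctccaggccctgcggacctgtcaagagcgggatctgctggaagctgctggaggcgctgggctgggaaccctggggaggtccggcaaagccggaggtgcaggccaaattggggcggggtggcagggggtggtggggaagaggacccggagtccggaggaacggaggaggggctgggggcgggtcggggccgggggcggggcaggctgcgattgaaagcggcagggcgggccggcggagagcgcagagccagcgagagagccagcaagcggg
Grm3: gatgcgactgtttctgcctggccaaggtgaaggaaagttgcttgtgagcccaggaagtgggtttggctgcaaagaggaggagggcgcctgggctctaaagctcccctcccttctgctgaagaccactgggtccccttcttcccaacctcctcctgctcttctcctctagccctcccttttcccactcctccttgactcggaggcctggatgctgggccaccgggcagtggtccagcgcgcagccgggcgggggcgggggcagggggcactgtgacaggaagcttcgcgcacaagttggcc

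Levels between genes were compared per kilobase of merged exons. The highest mean in IP was that of Grm3, 14.8 ± 3.41 CPM per kb (SD, n = 3), followed, among the genes named here, by Gria1 (13.2 ± 4.55), Gabrb2 (13.03 ± 6.06) and Glrb (10.2 ± 3.99), which did not differ beyond their spread. In unbound, Gabrb2 (42.6 ± 12.8 CPM per kb, SD, n = 4) and Glrb (34.3 ± 5.19) were the highest of these genes, again within their spread, Gria1 had 24.8 ± 5.33, and Grm3 had 11.97 ± 3.46. Grm3 thus stood at the head of the IP order and below 12 other receptor genes in unbound. The most abundant member of each of the 13 classes was the same whether lengths were those of merged exons or of the longest transcript.

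As a share of the summed level per kilobase of all 50 genes, GABA-A genes made up 39.0% ± 2.94 in IP (SD, n = 3) and 48.9% ± 3.03 in unbound (SD, n = 4), and every IP library was below every unbound one. Ionotropic glutamate receptor genes made up 33.1% ± 0.837 in IP and 26.7% ± 1.25 in unbound, and every IP library was above. Metabotropic genes made up 17.3% ± 2.54 in IP and 11.4% ± 0.692 in unbound, again without overlap, though the groups overlapped when counts were not divided by length. Glycine receptor genes made up 10.7% ± 0.886 in IP and 13% ± 1.53 in unbound, with overlap. Within these families the alpha subunits had 17.8% ± 0.405 in IP and 23.9% ± 1.76 in unbound. Metabotropic group II, mostly Grm3, had 10.2% ± 2.12 in IP and 3.48% ± 0.427 in unbound. Of the metabotropic groups, only group II had every IP library above every unbound one. Group I had 3.52% ± 0.454 in IP and 4.55% ± 0.629 in unbound, with every IP library below. Group III had 3.56% ± 0.819 in IP and 3.40% ± 0.299 in unbound, with overlap. The AMPA class had 18.7% ± 1.73 in IP and 15.2% ± 1.21 in unbound. Kainate genes had 7.85% ± 1.64 in IP and 5.44% ± 0.656 in unbound, and NMDA genes 5.66% ± 0.148 and 5.17% ± 0.436. In each of these classes every IP library was above every unbound one. With the longest transcript as length, the kainate and NMDA groups overlapped. No test was made of these shares, which are scores over the chosen genes.

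**Figure D4:**
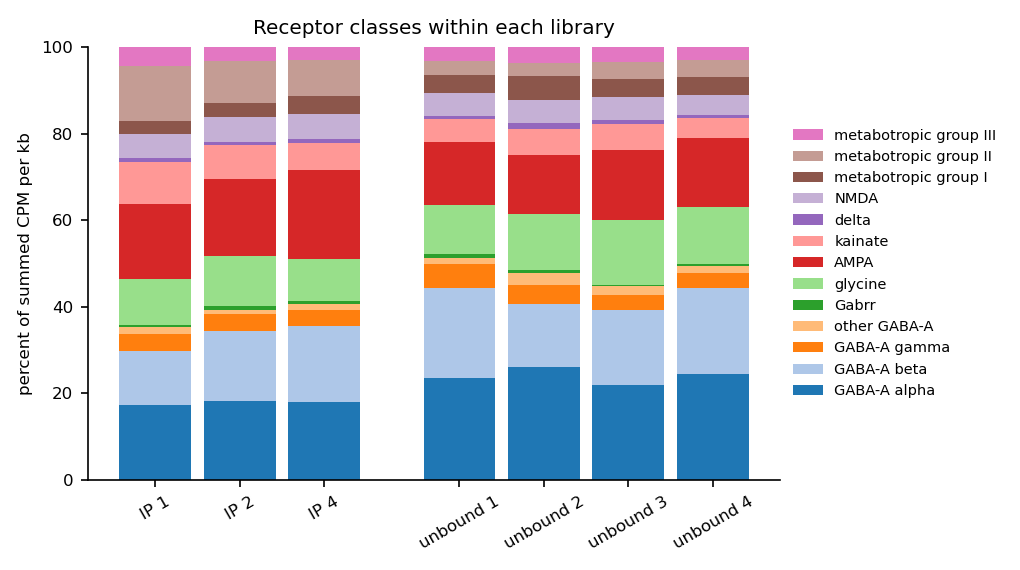
Percent of the summed CPM per kb of all receptor subunit genes taken by each of 13 classes, in each library, IP on the left. The GABA-A alpha segment is smaller and the metabotropic group II segment larger in each of the 3 IP libraries than in any of the 4 unbound ones.

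Most receptor genes were highest in IP 4 among the IP libraries, 41 of 47 (87.2%), against 39.0% of all genes tested. The median ratio of IP 4 to the mean of IP 1 and 2 was 1.87 over the receptor genes and 0.980 over all genes, and 32 of 47 reached 1.5. Besides Gabra6, with a ratio of 99.1, it was highest for Gabrd (5.80), Grin2b (3.93), Gria4 (3.37) and Gabre (3.21). Gabrq (0.738), Glra3 (0.685) and Grin2d (0.984) were not raised in IP 4. Markers of neurons moved with these genes: the pan-neuronal sum given above was 8039 CPM in IP 4, and the sum of 6 markers of cortex and hippocampus was 21.2, 25.3 and 193 CPM in IP, against 60.5, 33.6, 99.0 and 95.9 CPM in unbound. All 6 were highest in IP 4 among the IP libraries. Markers of other cells also differed in IP 4: the oligodendrocyte sum was 877, 997 and 1642 CPM in IP, against 5244, 6017, 7161 and 5426 CPM in unbound, and the sum for pericytes and smooth muscle was 4697, 4942 and 3319 CPM in IP, against 23.1, 22.2, 28.5 and 35.03 CPM in unbound. Among IP libraries IP 4 was thus the highest in the oligodendrocyte sum and the lowest in the pericyte one. Tbr1, a cortical transcription factor, had 0.907, 2.72 and 22.8 CPM in IP, against 2.98, 0.842, 0.171 and 1.78 CPM in unbound. Slc17a7, the vesicular glutamate transporter of cortical and cerebellar neurons, had 13.2, 9.43 and 94.9 CPM in IP, against 38.0, 22.2, 69.9 and 58.7 CPM in unbound. The part of these markers in the receptor values of IP 4 was not tested. Without IP 4, 37 receptor genes were lower in IP, and without both IP 4 and unbound 2, 39. Over all genes, 3213 of 18412 and 3957 of 18033 were lower in these fits.

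Genes for proteins that bind, anchor or assist the receptors, listed with the GABA-B receptor genes Gabbr1 and Gabbr2, were lower in IP in more than 1 of 2 cases. Of 62 such genes, all tested, 37 (59.7%) were lower, 0 were higher and the median log2 fold change was -1.10. Over all genes tested, 18.9% were lower and 20.5% were higher. At an unadjusted p under 0.05 edgeR found 1 gene higher, the scaffold gene Homer3 (0.97, adjusted p = 0.0838), and limma voom called 0 and DESeq2 1 after adjustment. Without IP 1 and without IP 2 the lower genes were 17 and 14, and those over all genes fell as well, from 3328 to 1899 and 1751. The auxiliary subunits and secreted partners of AMPA and kainate receptors had 16 of 21 lower (median -1.32), with Cacng7, a transmembrane AMPA receptor regulatory protein, at 58.6, 47.6 and 54.5 CPM in IP, against 158, 166, 149 and 132 CPM in unbound. Its groups were far apart and IP 4 was not the highest IP library (-1.50 ± 0.21, adjusted p = 0.000347). Olfm1, a secreted olfactomedin that binds AMPA receptors and the most abundant of that list, was lower (-1.41 ± 0.40, adjusted p = 0.0170), but not without IP 1 or IP 2 (-1.16 and -1.11, adjusted p = 0.0783 and 0.0818).

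The presynaptic ligands of delta receptors, cerebellins and neurexins, had 5 of 7 genes lower (median -1.62). Cbln1, which links delta receptors to neurexins, had 30.1, 16.3 and 18.7 CPM in IP, against 77.8, 68.8, 82.4 and 71.4 CPM in unbound (-1.79 ± 0.26, adjusted p = 0.000434), without overlap and with IP 1 the highest IP library. Inhibitory synapse partners, counted with Gabbr1 (lower) and Gabbr2 (not past the threshold), had 6 of 13 lower (median -0.79). Among them were Iqsec3, an exchange factor that binds gephyrin (-1.09 ± 0.27, adjusted p = 0.00848), and Gabarapl1, a relative of the GABA-A receptor-associated protein (-1.11 ± 0.31, adjusted p = 0.0148). Iqsec3 did not pass without IP 1 (-0.94, adjusted p = 0.0520), nor Gabarapl1 without IP 2 (-1.10, adjusted p = 0.0672). Scaffolds of excitatory synapses had 10 of 21 lower (median -0.74). Nlgn1, the neuroligin of excitatory synapses, was lower (-1.48 ± 0.25, adjusted p = 0.000972), and Shank1, the most abundant scaffold gene, did not pass (-0.74 ± 0.34, adjusted p = 0.109) except without unbound 2 (-0.95, adjusted p = 0.0141).

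**Figure D5:**
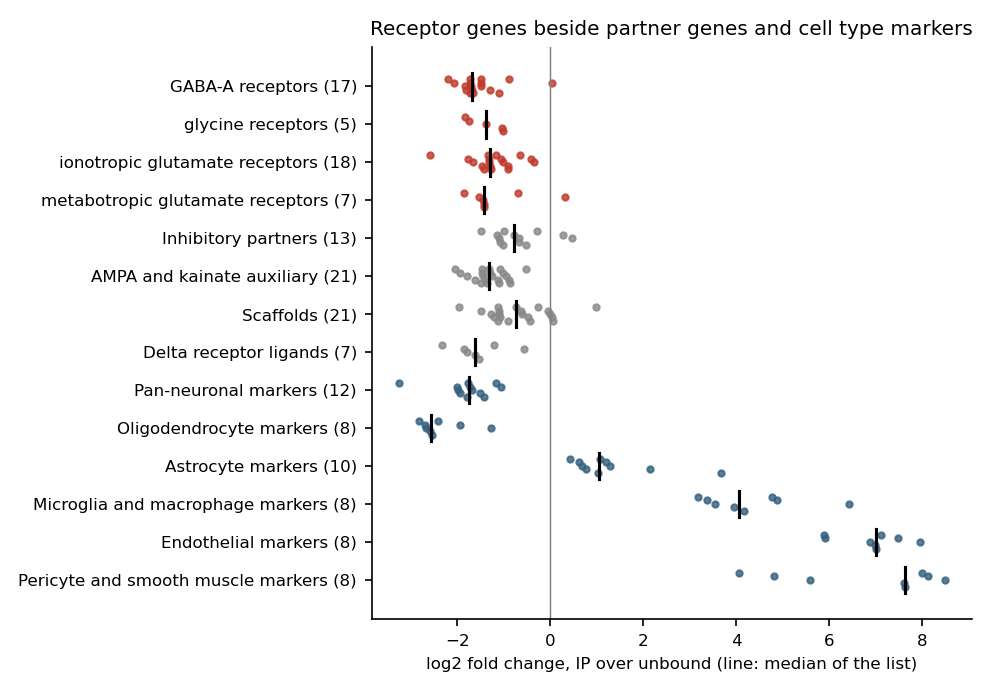
Log2 fold change, IP over unbound, of each gene in the 4 receptor families (red), 4 partner lists (grey) and 6 cell type marker lists (blue), with the list's median as a black line and the number of genes tested in brackets. Receptor medians lie between -1.68 and -1.29, all above the pan-neuronal median of -1.75 and the oligodendrocyte median of -2.56. Astrocyte markers lie at 1.05, and the vascular and macrophage lists further right.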

How the data were processed

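The authors aligned reads to mm10 with STAR 2.0.0e and counted them with HTSeq, per the submitters' processing notes, and deposited unnormalized counts, 1 whole number for each gene symbol and library. The annotation and the strand setting are not given in these notes. The 6 rows of each file that name no gene were left out. Libraries of 1 group differed by more than sampling noise (chi-square per degree of freedom over genes 77.69 to 1206).

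The main test was edgeR 4.0.16 in R 4.3.3 (filterByExpr, TMM, robust quasi-likelihood test, 2-sided, no covariates), fitted on all 17654 genes that passed the filter, with Benjamini-Hochberg adjustment at 0.05 over all of them, and was tested on simulated data. The ± after a log2 fold change is its standard error. Coordinates, exon overlaps and lengths came from GENCODE M21 (GRCm38, the build named mm10), and promoter sequences from RefSeq (GRCm38.p6).

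Of each class, values in every library were given for the gene with the smallest p and the most abundant gene per kilobase, for genes above 0 in a class with a median below 0, and for Stard8. Genes given this way beyond the rule are Gabra6, Gria3, Gria4, Grin2b and Grin2c, chosen after their values were seen. A few of the genes chosen this way are not reported here. The receptor genes, partner lists and marker lists were chosen with earlier results of these data known. Replicate numbers were not shown to pair the libraries. Deviations of IP and unbound libraries with the same number correlated at -0.0271, 0.0423 and 0.158. Those with different numbers correlated at -0.191 to 0.199. Such correlations cannot decide whether libraries with the same number came from the same homogenate.

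The alternatives tried were scaling by RLE or by library size, filters of 1 count in any library or 5 CPM in 3 libraries, the tests of DESeq2 1.42.0 and limma 3.58.1 voom, a replicate block, a covariate for the index sequence, each index by itself, removal of the 10 most abundant genes, removal of each library, and removal of IP 4 with unbound 2. The floor of 3 counts covers counting error only, as the reads carry no stated molecular identifiers.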

Additional observations from a re-analysis of the deposited data

Results flagged for a closer look

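In unbound 1, Gabra5 stood apart from the other unbound libraries at 74.9 CPM, where they had 52.6 to 55.9 CPM. In unbound 2, Gabrb1 stood apart at 9.45 CPM, where the others had 17.5 to 18.8 CPM. Both were found by comparing the gap to the nearest library with the whole range of the group, over 48 sets of 4 unbound values, and chance alone gives such a gap in about 1 set in 20. The 3 IP libraries are too few for this comparison. All IP values of both genes, 12.2 to 22.2 CPM for Gabra5 and 6.92 to 8.55 CPM for Gabrb1, stayed below the unbound ones.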

How the results depend on the processing

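Across the alternatives with more than 1 IP library 27 to 39 receptor genes were lower in IP. Over all genes, 1650 (of 17663) to 3993 (of 17598) were lower across the same alternatives. When single libraries were left out 19 to 37 receptor genes were lower, and 0 were higher in any fit. Of 885 log2 fold changes of receptor genes under alternatives, 780 kept direction and side of the threshold, 71 were no longer past it, 23 came past it and 11 changed sign. Those that changed sign were all of genes that did not pass: Gabra6 without unbound 4 (0.21), Gabrr1 without IP 2 (-0.07), IP 4 (-0.01), unbound 1 (-0.33) and unbound 3 (-0.03), Glra4 (0.029) and Grin2b (0.014) within index GTGAAA, Grin3b with limma voom (0.55), the replicate block (0.61) and within index ACAGTG (0.25), and Grm3 without IP 4 and unbound 2 (-0.026). Without single libraries Gabra6 ranged from -6.68 to 0.21 and Gabrr1 from -0.33 to 0.40. The cause was not tested. With the replicate number as a block, 35 of 47 receptor genes were lower, and 2530 of 17408 over all genes. The replicate numbers were not shown to pair the libraries.

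Partner genes lower in IP numbered 14 to 43 without single libraries, and those higher 0 to 1. With DESeq2 1 was higher (Homer3), and without IP 4 and unbound 2 also 1 (Gabarap). Within index GTGAAA, where IP 4 stood alone, Dlgap2 and Gabarap came past the threshold upward. Over all genes, 1650 were lower and 2190 higher within index ACAGTG, a fit with fewer libraries, and 1751 to 3632 were lower and 2796 to 4050 higher without single libraries. Without division by length, shares were 44.0% for GABA-A in unbound, 6.49% in IP and 7.86% in unbound for glycine, 43.8% in IP and 36.8% in unbound for ionotropic, and 13.4% in IP for metabotropic genes. With the longest transcript, ionotropic genes had 34.4% in IP and 28.0% in unbound, and metabotropic genes 14.7% in IP and 10.1% in unbound. Depth limits Gabrp, Gabrr3 and Grm6, which were at or near the floor of 3 counts, and Gabrr1 and Grin3b, which had under 1.3 CPM throughout.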
